A study of Mus musculus with 3 samples.

Results

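The enzymes described here build and modify the sugar chains of cell surface and secreted molecules. They are the glycosyltransferases, which add sugars, and the carbohydrate sulfotransferases, which add sulfate to sugars already in a chain. Their genes were taken from the array by name, as every probe whose gene name began with one of a fixed set of family prefixes (such as Chst, Galnt, B4gal, Siat, Mgat, Ext, Hs6st or Has). This gave 50 probes for 41 genes, of 20371 probes that were not controls. Under this rule 32 of the 41 genes had 1 probe and 9 had 2 probes.

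The cells were primary cultures from superovulated and mated C57/Bl6 female mice. They came from the ovarian surface epithelium, a sheet of cells around the ovary. Mesenchymal cells had been held for 1 week in 15% fetal bovine serum, and epithelial cells of the same culture had been kept in 2.5% serum. There were 3 separate cultures, and the RNA of mesenchymal and epithelial cells of a culture was hybridised together on 2 Agilent 2-colour arrays with the dyes Cy5 and Cy3 exchanged. The comparison asks how gene expression differs after and before an epithelial to mesenchymal transition, and serum and phenotype changed together, so their effects cannot be told apart. Whether a culture came from 1 or several animals is not stated in the labels.

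Ratios are log2 of mesenchymal over epithelial RNA, averaged over a culture's pair of arrays. They are given as the mean and SD of 3 cultures (n = 3) except where n is stated. Levels are array intensities of each RNA, on a linear scale. Amounts of RNA are compared only within a probe, and brightness served only to choose which genes to name. A gene is called where limma's adjusted p, over all 17524 features of the array, is under 0.05. In RNA from whole cultures, fewer cells that express a gene and less RNA per cell cannot be told apart.

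The sugar chains fall into a few classes that share donors and compartments. Glycosaminoglycans are long chains on proteoglycan core proteins. The Ext enzymes polymerise heparan sulfate, and sulfotransferases for different positions then set where growth factors and antithrombin bind it. Hyaluronan is made at the plasma membrane by Has enzymes and carries no sulfate. N-glycans are branched by Mgat enzymes, extended by B4galt and B3gnt enzymes, fucosylated at the core by Fut8 and capped with sialic acid by St3gal and St6gal enzymes. Mucin-type O-glycans are begun by Galnt enzymes. N-glycan branching and sialylation, hyaluronan and heparan sulfate are all known to be remodelled in epithelial to mesenchymal transitions of other cells.

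The 41 genes include 5 heparan sulfate sulfotransferases and 2 sulfotransferases of other carbohydrates. Of these, 5 are among the 8 called genes described below, where 11.9% of all features were called. The promoters of 4 of these called sulfotransferases are shown, 2 of genes that rose and 2 of genes that fell, to let their base composition be compared. Each is 250 bases before to 50 bases after the gene's start, from RefSeq on GRCm38.p6, printed 5′ to 3′ on the gene's strand with every CpG in capitals. The Chst1 promoter is chr2:92600867-92601166 on the plus strand, and that of Chst2 is chr9:95407221-95407520 on the minus strand. The Hs6st1 promoter is chr1:36068150-36068449 on the plus strand, and that of Hs3st1 is chr5:39644582-39644881 on the minus strand.
Chst1: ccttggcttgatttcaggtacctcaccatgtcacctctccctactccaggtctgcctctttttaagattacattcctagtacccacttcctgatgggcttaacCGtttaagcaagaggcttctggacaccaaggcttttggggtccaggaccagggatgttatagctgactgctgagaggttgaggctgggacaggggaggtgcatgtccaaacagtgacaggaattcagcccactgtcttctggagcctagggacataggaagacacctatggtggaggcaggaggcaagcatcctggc
Chst2: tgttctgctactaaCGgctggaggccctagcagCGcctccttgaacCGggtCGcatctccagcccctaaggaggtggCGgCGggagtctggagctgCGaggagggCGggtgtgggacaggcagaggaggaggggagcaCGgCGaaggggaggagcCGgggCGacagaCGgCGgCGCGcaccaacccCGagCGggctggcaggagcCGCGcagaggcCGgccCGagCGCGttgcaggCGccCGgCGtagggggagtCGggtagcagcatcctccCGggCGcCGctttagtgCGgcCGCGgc
Hs6st1: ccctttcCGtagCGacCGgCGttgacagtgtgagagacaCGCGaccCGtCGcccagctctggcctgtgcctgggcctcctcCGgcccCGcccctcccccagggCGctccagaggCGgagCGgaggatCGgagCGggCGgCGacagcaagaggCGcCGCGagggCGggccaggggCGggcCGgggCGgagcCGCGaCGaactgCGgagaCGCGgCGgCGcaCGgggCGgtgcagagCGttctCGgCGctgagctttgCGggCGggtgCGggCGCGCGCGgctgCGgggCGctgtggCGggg
Hs3st1: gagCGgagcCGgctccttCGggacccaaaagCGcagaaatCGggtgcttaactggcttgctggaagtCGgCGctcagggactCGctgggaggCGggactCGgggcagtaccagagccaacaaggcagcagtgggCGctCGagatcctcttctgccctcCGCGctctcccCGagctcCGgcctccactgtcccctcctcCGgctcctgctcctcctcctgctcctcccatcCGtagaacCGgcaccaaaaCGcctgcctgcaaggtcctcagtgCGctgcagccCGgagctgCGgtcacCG
The Chst1 promoter held 1 CpG, and 14.1% of all 32851 promoters in the table held no more. The Hs6st1 promoter held 47 CpGs, and 98.8% of all promoters held no more. Chst2 had 34 and Hs3st1 had 24, against a median of 7 over all promoters. Hs6st2, the called sulfotransferase whose sequence is not shown, fell and had promoters with 12 and 33 CpGs. The promoter table matched 31 of the 41 genes, and the 8 called genes had 11 promoters in it. The E-box letters CACCTG, or CAGGTG on the other strand, were in none of these 11 windows, against 20.2% of all promoters. A match or its absence describes only the letters of the window.

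Mesenchymal and epithelial cells differed in 8 of the 41 genes (19.5%), where 11.9% of all features were called. Of these, 3 genes rose (7.32%, against 5.97% of all features) and 5 genes fell (12.2%, against 5.96%). The genes that rose were the sulfotransferases Chst1 and Chst2 and the sialyltransferase St3gal4. The genes that fell were the heparan sulfate sulfotransferases Hs6st1, Hs6st2 and Hs3st1, the galactosyltransferase B4galt4 and the sialyltransferase St6gal1. The other 33 genes were not called. Over the 41 genes the median size of the log2 ratio was 0.11, against 0.09 over all features, so the typical gene of the family changed about as much as the typical feature. With mesenchymal and epithelial RNA taken as unpaired, 1 of the 41 genes (Chst1) and 1.4% of features were called. Without culture 1, 19 of 40 genes and 32.2% of features were called. The change was at least 2-fold in 2 of the 41 genes, against 320 of all features (1.83%).

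**Figure D1:**
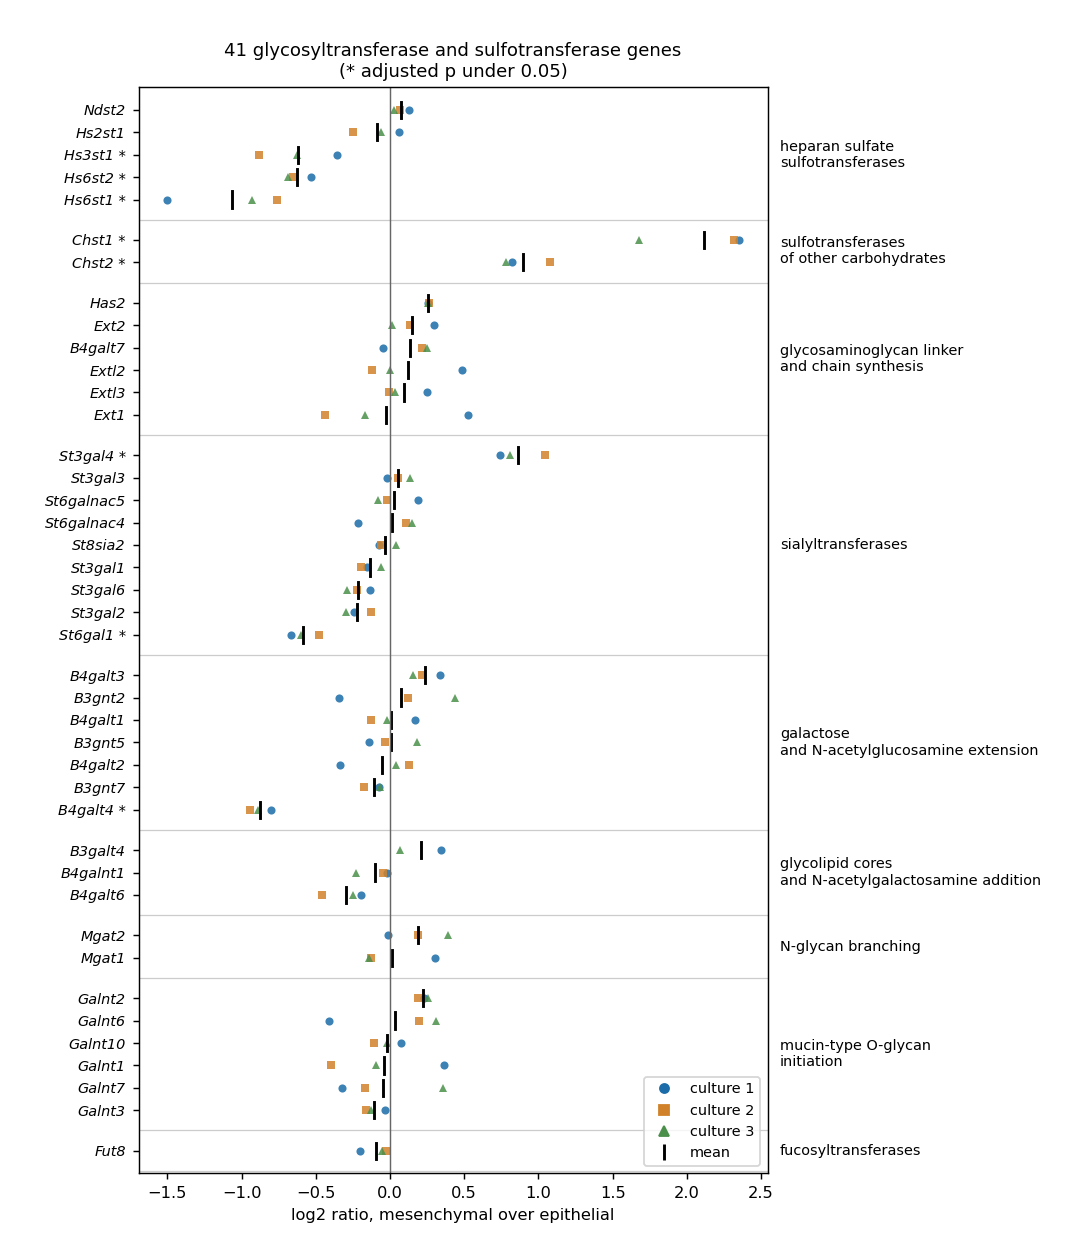
Log2 ratio of mesenchymal over epithelial RNA in each of the 3 cultures (symbols) and their mean (black bar) for the 41 genes, grouped by role, where a star marks a called gene. Chst1 stands farthest right with a mean of 2.11 and Hs6st1 farthest left with a mean of -1.06, and the genes that were not called have means between -0.30 and 0.26.

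Heparan sulfate sulfotransferases were represented by 5 genes, of which 3 fell, none rose and 2 were not called, where 5.96% of all features fell. The median log2 ratio of the 5 genes was -0.62, against -0.003 over all features. Hs6st1 and Hs6st2 add sulfate to the sixth carbon of glucosamine, and Hs3st1 adds it to the third carbon, a modification known for the antithrombin binding site of heparan sulfate. The level of Hs6st1 was 5479, 5879 and 5718 in mesenchymal cells of cultures 1, 2 and 3, against 15507, 9945 and 10865 in epithelial cells. All mesenchymal levels lay below all epithelial levels, and the epithelial level of culture 1 stood above the other two. The log2 ratio of Hs6st1 was -1.06 ± 0.39 (adjusted p = 0.0066), a mean 2.09-fold lower level in mesenchymal cells. Its ratio was -1.50 in culture 1, -0.76 in culture 2 and -0.93 in culture 3. It was -1.68 ± 0.34 on the arrays with mesenchymal RNA in Cy5 and -0.45 ± 0.44 on those with it in Cy3 (SD over arrays), and with the second set alone Hs6st1 was not called (adjusted p = 0.10).

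The level of Hs3st1 was 4315, 3941 and 5118 in mesenchymal cells and 5516, 7279 and 7911 in epithelial cells of cultures 1, 2 and 3. The groups did not overlap, and the difference was smallest in culture 1. Its log2 ratio was -0.62 ± 0.27 (adjusted p = 0.017). With culture 2 left out its adjusted p was 0.055 and with culture 3 left out 0.098.

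Hs6st2 had levels of 36369.7, 33486 and 28665.5 in mesenchymal cells, against 52636, 52641 and 46238 in epithelial cells of cultures 1, 2 and 3. Its probe was saturated on 1 of 6 arrays for mesenchymal RNA and on 3 of 6 for epithelial RNA. Saturation of epithelial RNA makes the fall look smaller and that of mesenchymal RNA makes it look larger. The net effect on the ratio was not tested. Its log2 ratio was -0.63 ± 0.08 (adjusted p = 0.0037). The 2 dye orientations gave different ratios. It was -1.32 ± 0.33 on the 3 arrays with mesenchymal RNA in Cy5, and 0.07 ± 0.20 on the 3 with mesenchymal RNA in Cy3 (SD over arrays). Its dye effect was -0.70, larger than its change. The 3 arrays with mesenchymal RNA in Cy3 gave -0.03, -0.06 and 0.30 for cultures 1, 2 and 3, so their mean was not below 0.

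The remaining members of this role were Hs2st1, which sulfates iduronic acid, and Ndst2, which begins sulfation by replacing acetyl groups of glucosamine. Their log2 ratios were -0.08 ± 0.16 and 0.07 ± 0.05, and neither was called. Another 3 genes of the role were on the array under expressed-sequence or RIKEN names and lay outside the prefix rule. These were Ndst1, Hs3st2 and Hs3st3b1, and their log2 ratios ran from -0.18 to 0.02 with none called.

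Sulfotransferases of other carbohydrates were represented by 2 genes, and both rose, where 5.97% of all features rose. Chst1 sulfates galactose, chiefly of keratan sulfate, and Chst2 sulfates N-acetylglucosamine, among others in ligands of L-selectin. Chst1 had levels of 5591, 5903 and 5711 in mesenchymal cells, against 1097, 1183 and 1789 in epithelial cells of cultures 1, 2 and 3. The 3 mesenchymal levels lay close together, and the epithelial level was highest in culture 3. Chst1 had a log2 ratio of 2.11 ± 0.38 (adjusted p = 0.00057), a mean 4.33-fold higher level in mesenchymal cells and the largest change among the 41 genes. Its ratios of 2.35, 2.32 and 1.68 in cultures 1, 2 and 3 all lay above the ratio of any other gene of the family in any culture.

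The level of Chst2 was 4799, 4506 and 3804 in mesenchymal cells and 2717, 2131 and 2214 in epithelial cells of cultures 1, 2 and 3. The groups did not overlap, and every culture moved the same way. Chst2 rose by 0.89 ± 0.16 on the log2 scale (adjusted p = 0.0019). The ratios of Chst1 and Chst2 were above 0 on all 6 arrays. Chst10, which sulfates the HNK-1 sugar and is named Hnk-1st-pending on the array, was outside the prefix rule and had a log2 ratio of 0.03 ± 0.05. The 4 genes of chondroitin and dermatan sulfotransferases on the array (Chst11, Chst12, Chst14 and Chst15) also had other names. Of these Chst11, which sulfates chondroitin, was called higher at 0.60 ± 0.21 (adjusted p = 0.012), and its dimmer probe gave -0.21.

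**Figure D2:**
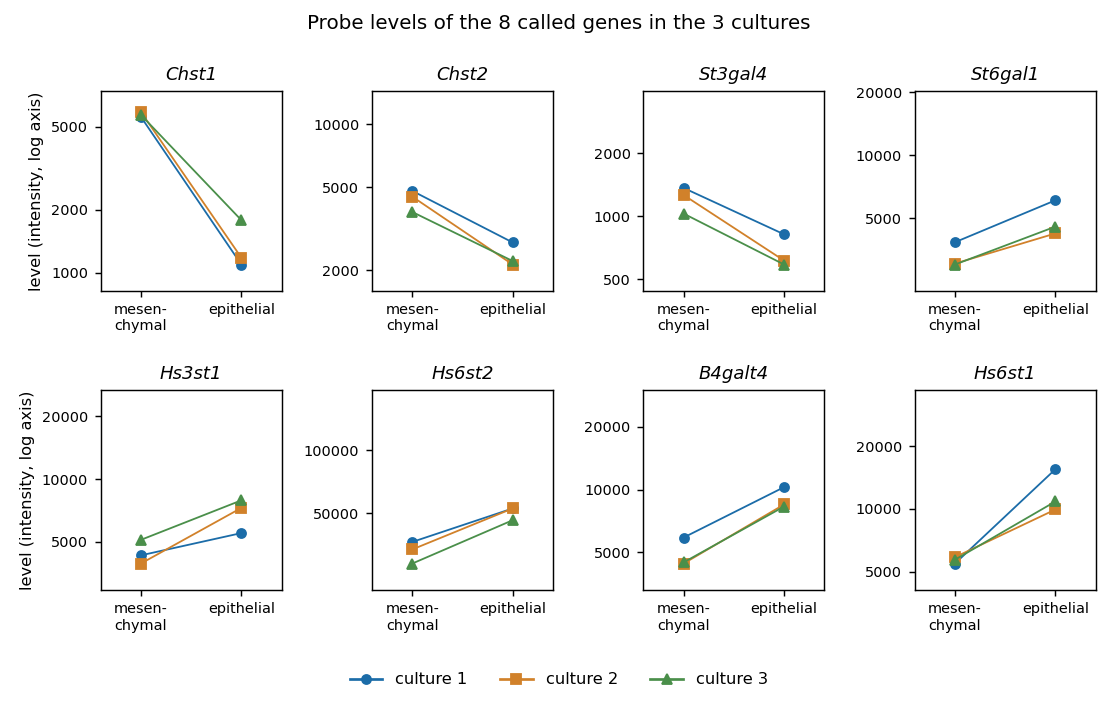
Level of the probe (intensity, log axis of equal span in every panel) in mesenchymal (left) and epithelial (right) cells for the 8 called genes, with 1 line per culture. Mesenchymal and epithelial levels of the 3 cultures do not overlap in any of the 8 genes, and Chst1 has the steepest lines. The 8 genes were called from the same data, so this gives no separate support. The levels of B4galt3, which was not called, did not overlap either, and the share over all features was not computed.

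Sialyltransferases, which cap chains with sialic acid, were represented by 9 genes, of which 1 rose, 1 fell and 7 were not called. Of all features 11.9% were called. The median log2 ratio of the 9 genes was -0.03. The 2 that changed attach sialic acid to the terminal galactose of N-glycans at different carbons, St3gal4 at the third and St6gal1 at the sixth. St3gal4 had levels of 1365, 1263 and 1029 in mesenchymal cells, against 819, 613 and 587 in epithelial cells of cultures 1, 2 and 3. St3gal4 rose by 0.86 ± 0.16 on the log2 scale (adjusted p = 0.0021). The groups did not overlap and all 6 arrays were above 0, with 0.38 ± 0.33 where mesenchymal RNA was in Cy5 and 1.34 ± 0.41 where it was in Cy3. With the arrays that had mesenchymal RNA in Cy5 alone it was not called (adjusted p = 0.070).

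St6gal1 had levels of 3833, 3030.2 and 2999 in mesenchymal cells, against 6086, 4225 and 4554 in epithelial cells of cultures 1, 2 and 3. Its log2 ratio was -0.58 ± 0.10 (adjusted p = 0.0050), and all 6 arrays were below 0. Without culture 3 its adjusted p was 0.057. The dye effect of St6gal1 was only -0.08, so its ratio was about the same in either dye orientation, at -0.66 ± 0.06 with mesenchymal RNA in Cy5 and -0.50 ± 0.25 with it in Cy3. St3gal4 was thus higher and St6gal1 lower in mesenchymal cells, in 3 of 3 cultures each.

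The sialyltransferases that were not called include St3gal1 and St3gal2, which act mainly on O-glycans and gangliosides. Their log2 ratios were -0.14 ± 0.07 and -0.22 ± 0.08, below 0 in each of the 3 cultures. The second probe of St3gal1 under the prefix rule gave 0.02 ± 0.12, with culture 2 at 0.16. Averaged over all probes with the symbol St3gal1, the log2 ratio was -0.26 (adjusted p = 0.057). This lies below both probes, so a probe of St3gal1 outside the prefix rule lay lower. St6galnac4, which adds sialic acid to the N-acetylgalactosamine of short O-glycans, had 2 probes that differed. Its brighter probe gave 0.01 ± 0.20, and its dimmer probe gave 0.35 ± 0.06 (adjusted p = 0.030 where every probe was tested, of which 11.3% were called). St8sia2, which makes polysialic acid, had a log2 ratio of -0.03 ± 0.06.

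Enzymes that extend chains with galactose or N-acetylglucosamine were represented by 7 genes, of which 1 fell and 6 were not called. Of all features 5.96% fell. The median log2 ratio of the 7 genes was 0.004. The gene that fell was B4galt4, whose human enzyme is known to add galactose to sulfated N-acetylglucosamine. B4galt4 had levels of 5891, 4423 and 4481 in mesenchymal cells and 10270.2, 8486 and 8294 in epithelial cells of cultures 1, 2 and 3. Its log2 ratio was -0.88 ± 0.07 (adjusted p = 0.0010), from -0.80, -0.94 and -0.89 in cultures 1, 2 and 3. The groups did not overlap, and the cultures differed little. B4galt1, the widely expressed enzyme that makes N-acetyllactosamine, had the brightest probe of this role and had a log2 ratio of 0.01 ± 0.15, with mixed signs over the cultures.

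Glycosaminoglycan linker and chain synthesis was represented by 6 genes, and none was called. Has2, a hyaluronan synthase, had levels of 1423, 1735 and 1528 in mesenchymal cells, against 1194, 1447 and 1281 in epithelial cells of cultures 1, 2 and 3. The levels of the groups overlapped, while every culture on its own was higher in mesenchymal cells, by 0.25, 0.26 and 0.25 on the log2 scale. The mean of Has2 was 0.256 ± 0.005 with an adjusted p of 0.062 (95% confidence interval 0.09 to 0.42), so that the smallest spread of the 41 genes went with a change that missed the threshold. The ratio was 0.46 ± 0.04 with mesenchymal RNA in Cy5 and 0.05 ± 0.05 with it in Cy3. Of the hyaluronan synthases only Has2 was analysed here.

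Ext1 and Ext2 form the enzyme that polymerises heparan sulfate. Ext1 had the widest spread over cultures of the 41 genes. Its levels were 16882, 12526 and 14929.6 in mesenchymal cells and 11727, 16955 and 16805 in epithelial cells of cultures 1, 2 and 3. Mesenchymal cells were thus higher in culture 1 and lower in cultures 2 and 3, and the log2 ratios were 0.53, -0.44 and -0.17. Its mean was -0.03 ± 0.50 (adjusted p = 0.96), and without culture 1 it was -0.30 and called. Ext2 had a log2 ratio of 0.15 ± 0.14. Extl3, which starts heparan sulfate chains on the linker and had the next brightest probe of the role after Ext1, had 0.09 ± 0.14.

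Mucin-type O-glycan initiation was represented by 6 Galnt genes, and none was called. Galnt2 and Galnt1 had the brightest probes. Galnt2 was above 0 on all 6 arrays, with 0.22 ± 0.04 (adjusted p = 0.098), and its second probe gave 0.26 ± 0.29. Galnt1 had 0.36, -0.39 and -0.09 in cultures 1, 2 and 3, a mean of -0.04 ± 0.38. Its second probe gave 0.28, -0.17 and 0.03, so only the signs of cultures 1 and 2 were shared by its probes.

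Both N-glycan branching genes of the family were not called. Mgat1, whose enzyme opens the way to complex N-glycans, had a log2 ratio of 0.01 ± 0.25, and Mgat2, which starts the next branch, had 0.19 ± 0.20. The accession given for the Mgat2 probe is that of a rat transcript, so its identity is uncertain. Mgat3, which adds the bisecting N-acetylglucosamine, and Mgat5, whose branch is widely studied in tumour cells, had RIKEN names on the array. Mgat5 had a log2 ratio of -0.03 ± 0.06. Mgat3 was called at -1.42 ± 0.44 (n = 2 cultures, adjusted p = 0.0064), with a dye effect of -1.99 that exceeded its change, and with 3 arrays above 0 and 2 below. Fut8, the enzyme of core fucose, had a log2 ratio of -0.09 ± 0.10. Its 3 arrays with mesenchymal RNA in Cy5 gave -0.50 ± 0.07 and its 3 with mesenchymal RNA in Cy3 gave 0.31 ± 0.13, so no direction was shared.

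Of the 3 genes for glycolipid cores and N-acetylgalactosamine addition none was called. B4galt6, which makes lactosylceramide, had the ratio farthest from 0 among the genes not called, at -0.30 ± 0.14 (adjusted p = 0.069), and its second probe gave -0.12 ± 0.02. B4galnt1, which makes the core of complex gangliosides, had -0.10 ± 0.11. Its probe carries another description, of a solute carrier, in the annotation of 1 array, so its identity is uncertain.

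Among the 33 genes not called, 19 had a mean within 0.1 of 0 on the log2 scale. The 3 cultures disagreed in sign for 19 of the 33 and shared a sign for 13, and B3galt4 was measured in 2 cultures. The smallest called change was 0.58 in size and the largest not called was 0.30. At an unadjusted p under 0.05 there were 14 genes, the 8 called and 6 more. The share of all features at that unadjusted threshold was not computed, so the 6 are not read as changes.

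Dye effects were a large part of single array values. The Cy5 over Cy3 dye effect was called for 30 of the 41 genes (73.2%, against 57.1% of all features), and it was larger than the change between mesenchymal and epithelial cells for 26. Of the 8 called genes, 7 had the same sign on all 6 arrays, and the dye effect exceeded the change only for Hs6st2. The 8 genes were called from these same arrays, so the shared signs give no separate support. The share of all features was not computed for these counts or for the 26. Still, the ratio depended on the orientation for more of the called genes. Chst1 had 2.57 ± 0.42 with mesenchymal RNA in Cy5 and 1.65 ± 0.36 with it in Cy3, and Chst2 had 0.56 ± 0.08 and 1.23 ± 0.28. B4galt4 had -1.40 ± 0.23 and -0.35 ± 0.09, and Hs3st1 had -0.39 ± 0.25 and -0.85 ± 0.33, in the same order. Each of these 4 was called in either orientation alone. Those fits, in which dye effects do not cancel, called 40.1% of all features with mesenchymal RNA in Cy5 and 33.4% with it in Cy3. Averaging the 2 orientations removes an effect that is equal in both.

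**Figure D3:**
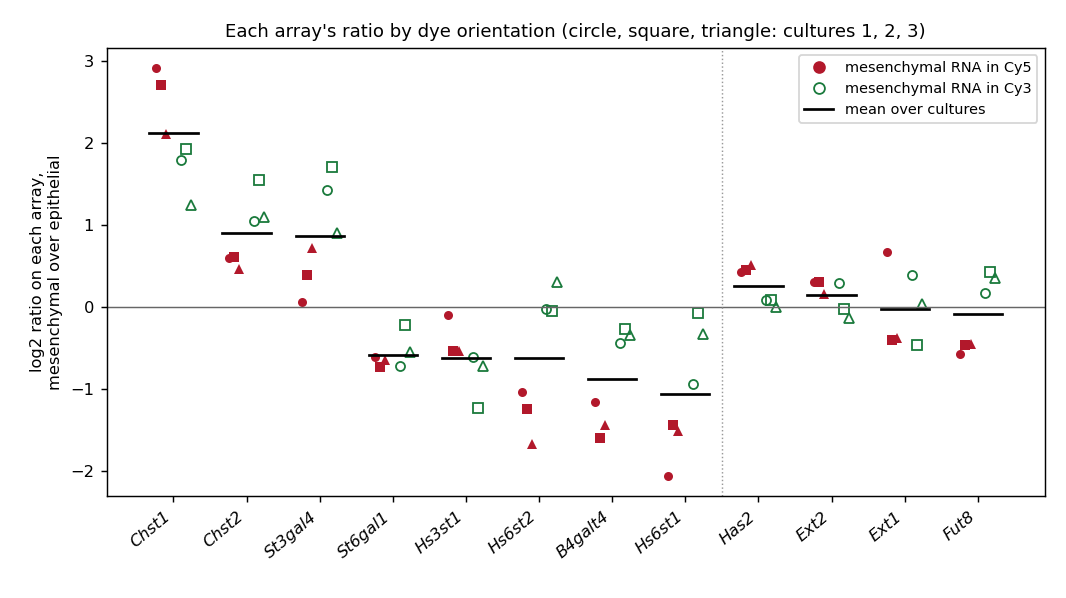
Log2 ratio of mesenchymal over epithelial RNA on each of the 6 arrays, with mesenchymal RNA in Cy5 (filled) or Cy3 (open), for the 8 called genes and, right of the dotted line, Has2, Ext2, Ext1 and Fut8. The bar is the mean over cultures. Hs6st2 separates into -1.32 and 0.07 by dye orientation, while St6gal1 does not separate.

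The 9 genes with 2 probes under the prefix rule allow the ratio to be measured again. A further probe of St3gal1 outside the rule is not included here. None of the 9 was among the 8 called genes. In 7 of the 9 the probes were within 0.2 of each other on the log2 scale, and in 4 they had the same sign. The widest gap was 0.33, in St6galnac4. B4galt3, another N-acetyllactosamine enzyme, had 0.24 ± 0.09 on the brighter probe and -0.05 ± 0.04 on the dimmer.

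**Figure D4:**
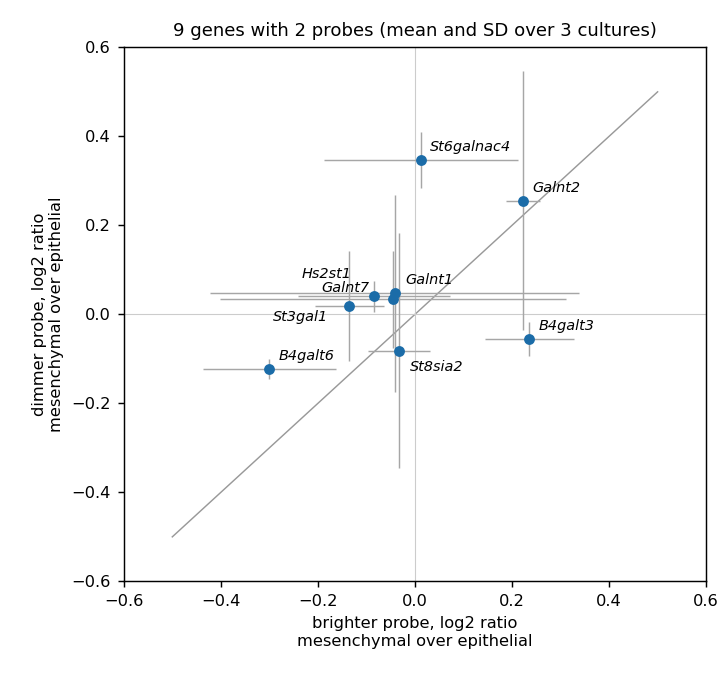
Log2 ratio of mesenchymal over epithelial RNA of the brighter probe (horizontal) and the dimmer probe (vertical) for the 9 genes with 2 probes, as mean and SD over the 3 cultures, with the line of equality. St6galnac4 and B4galt3 lie farthest from the line, with gaps of 0.33 and 0.29.

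The names on the array are those of its design. For 12 of the 41 genes the array's name is older than the current symbol, as with the Siat names of the sialyltransferases. The 2 versions of the array's annotation gave another name for 11. Including genes of the same roles under other names adds 22 genes, of which 1 rose (Chst11) and 1 fell (Mgat3), 9.09% against 11.9% of all features. All 50 probes passed the filter on dim probes. Cross-hybridisation between related genes was not tested.

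The enzymes act with other proteins of the pathway, here 69 genes in 4 lists, of which 11 rose, 9 fell and 49 were not called (29.0% called, against 11.9% of all features). Of 14 further glycosaminoglycan enzymes and modifiers, 4 rose and 3 fell. Slc35b2, which carries the sulfate donor into the Golgi, rose by 0.74 ± 0.04 on the log2 scale, and Ugdh, which makes UDP-glucuronic acid for the chains, rose by 0.71 ± 0.09. Glce, the epimerase that forms the iduronic acid of heparan sulfate, fell by 1.18 ± 0.15 (n = 2 cultures). The adjusted p was 0.0017 for Slc35b2, 0.0025 for Ugdh and 0.0027 for Glce.

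Sulf1 and Sulf2 remove sulfate from the sixth carbon of heparan sulfate glucosamine outside the cell, the group that Hs6st1 and Hs6st2 add. Sulf1 was called lower, with -1.21 ± 0.42 (adjusted p = 0.0049). Its dye effect was -2.45, and 3 arrays were above 0 and 3 below. Sulf2 was called higher, with 0.60 ± 0.17 (adjusted p = 0.0085), and was above 0 on all 6 arrays.

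Of 14 proteoglycan core proteins and hyaluronan receptors, 5 rose and 2 fell, where 5.97% of all features rose and 5.96% fell. Gpc4 and Sdc2, cell surface cores that carry heparan sulfate, fell by 1.59 ± 0.04 (adjusted p = 0.00017) and by 1.16 ± 0.19 (adjusted p = 0.0010) on the log2 scale. Vcan, a large chondroitin sulfate core of the matrix, rose by 1.23 ± 0.20 (adjusted p = 0.000895), and its other probe gave 0.53. Sdc3, another heparan sulfate core, rose by 0.97 ± 0.40 (adjusted p = 0.010). Heparan sulfate cores were thus found among the genes that rose and among those that fell.

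**Figure D5:**
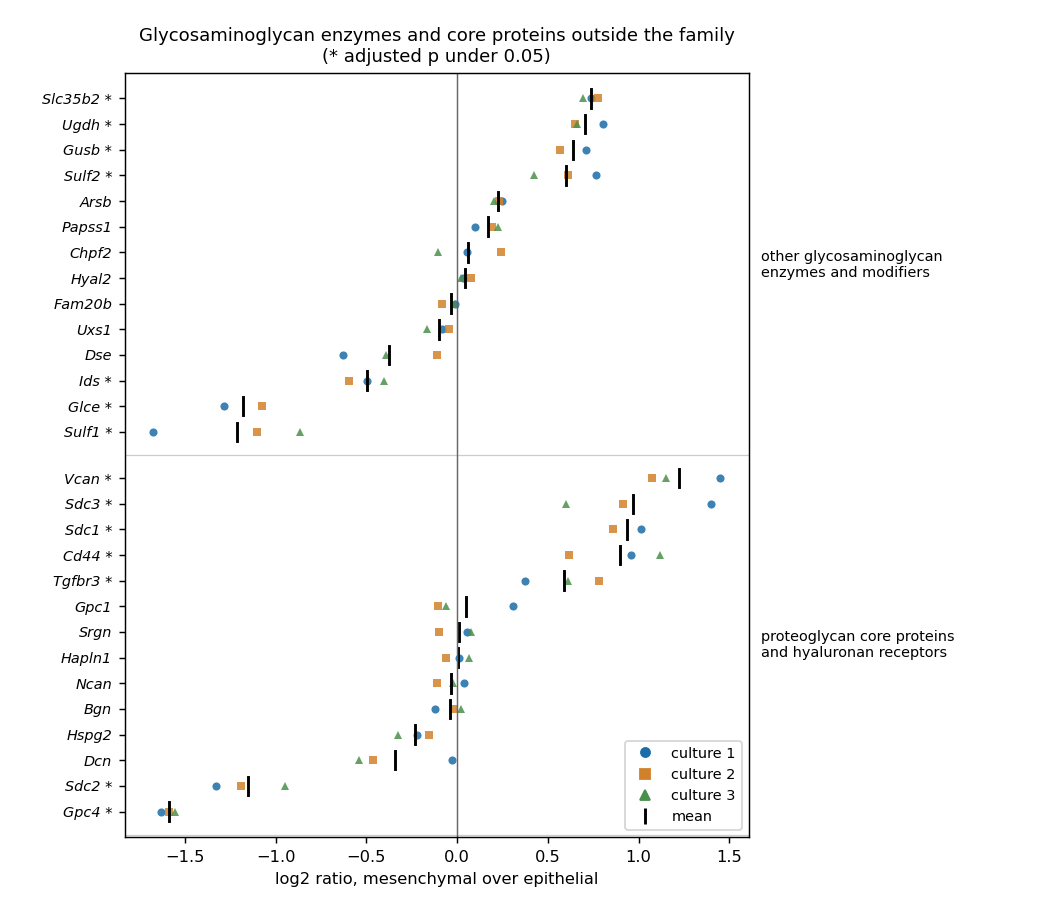
Log2 ratio of mesenchymal over epithelial RNA in each culture (symbols) and their mean (bar) for 14 further glycosaminoglycan enzymes and 14 core proteins or hyaluronan receptors, where a star marks a called gene. Gpc4 is lowest at -1.59 and Vcan highest at 1.23, and 7 genes of each list were not called.

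Of 18 genes that supply sugar nucleotides, 2 rose and none fell, where 5.97% of all features rose and 5.96% fell. Galt, an enzyme of galactose use, rose by 0.56 ± 0.14 (n = 2 cultures, adjusted p = 0.025). Ugp2, which makes UDP-glucose, was called at 0.56 ± 0.13 (adjusted p = 0.0078), with 3 arrays above 0 and 3 below. Of 23 other N-glycan, O-glycan and glycolipid enzymes, 4 fell and none rose. Gcnt2, which branches chains of N-acetyllactosamine, was called at -0.90 ± 0.08 (adjusted p = 0.0010), and its other probe gave -0.07. Dag1, the dystroglycan that carries O-mannose chains, was at least 1.535-fold lower in mesenchymal cells (adjusted p = 0.0031), a bound since its probe was saturated for epithelial RNA on all 6 arrays.

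The identity of the cells bears on every value above. For the counts of markers below, 5.97% of all features rose and 5.96% fell. Of 9 measured markers of ovarian surface epithelium and mesothelium, 6 fell and none rose, and their summed level was 146480 to 173080 in mesenchymal cells against 298237 to 329988 in epithelial cells. Of 6 markers of mesenchymal cells 1 rose and 2 fell, with summed levels of 176029 to 183383 in mesenchymal cells and 201674 to 241905 in epithelial cells. Of these, Fn1 was saturated for both RNAs on all 6 arrays, and Vim on 6 for mesenchymal and 5 for epithelial RNA, while Acta2 was saturated on 5 for epithelial RNA. Of the epithelial list, Krt7 was saturated on 6 for epithelial RNA, Krt8 on 3 for each RNA and Krt19 on 2 for epithelial RNA. These 3 are among the genes of that list that fell. The sums describe the intensities over different probes and do not compare the amounts of RNA. Granulosa markers (8 measured, 1 fell) summed to 22208 to 33578 in mesenchymal and 22680.1 to 36526 in epithelial cells, and theca and stroma markers (7 measured, 1 rose and 2 fell) to 23812 to 34617 and 34169 to 40787. None of 4 endothelial and 3 leukocyte markers was called. All measured markers were well above the scanner's background, a flag that 18.5% to 81.5% of negative control spots also carried, so it does not show that these genes were expressed. Their part in the results was not tested.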

How the data were processed

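RNA of mesenchymal and epithelial cells of 3 cultures was measured on 6 Agilent 2-colour arrays, 2 per culture with exchanged dyes. Per the file headers, the deposited intensities give each spot's mean and its local background before any correction, and the deposited log10 ratios were computed by Agilent's Feature Extraction software after background subtraction and lowess dye normalisation. The submitters' processing notes list limma. The authors' deposited value table is also in log10 ratios. Set against the scanner's ratios, a column was the difference of a culture's 2 arrays divided by 2, with medians of 0.00555, -0.0101 and -0.00233 for cultures 1, 2 and 3. The direction of every ratio rests on the dyes stated in the names of the deposited arrays, since in the labels either RNA carries either dye. Other flags of the scanner software, deposited as 0 or 1, were used as filters.

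With limma 3.58.1 under R 4.3.3, intensities were corrected with normexp (offset 50) and ratios normalised by loess within the array, with control spots at weight 0. Ratios were turned to mesenchymal over epithelial and averaged over a culture's 2 arrays. Outlier-flagged spots were left out, and saturated spots were kept. A probe was tested if 1 of its RNAs was flagged well above background on 4 or more of 6 arrays, and if 2 or more cultures gave a value. The brightest probe stood for a gene. Each of 17524 features was tested against 0 (lmFit, eBayes) with Benjamini-Hochberg adjustment at 0.05, and the dye effect likewise. Since each ratio is within a culture, the culture is a block by construction. Array number limits the precision. The SDs are over cultures, which the labels call biological replicates. On 1 array (culture 3, mesenchymal RNA in Cy3) the software subtracted background by another method and flagged 1639 outlier probes, against 61 to 467 on the others.

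In simulated data of 17524 features with 200 changed, 75% of changes of 1 and 97% of changes of 2 on the log2 scale were recovered. The simulation drew each culture's deviation separately for each feature. It therefore lacks differences between cultures that many features share, such as those of culture 1, and recovery in the real data may differ. The members, roles and lists were chosen with earlier results of these data known. Named were all called members, the 2 brightest of each role with fewer than 2 called, members whose probes disagreed in the call, Has2, Ext1, Ext2, Mgat5, Fut8 and St6gal1, and up to 2 called partner genes with the largest change per list and direction. Other genes named by the text were chosen after their values were seen. Alternatives were other normalisations, filters and probe choices, fits that leave out a culture or use 1 dye orientation, a fit with a dye term and a fit without the pairing.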

Additional observations from a re-analysis of the deposited data

How the results depend on the processing

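Scanner log ratios, the authors' value table, median centring, 2 other filters on dim probes, 2 other probe choices, outlier-flagged spots kept, and trended robust variance each called the same 8 genes of the family. Without saturated probes Hs6st2 was not tested and the other 7 were called. A dye term on 6 arrays called 11, adding B4galt3, B4galt6 and Has2, with 14.2% of all features called. Without the replicate block, with mesenchymal and epithelial RNA taken as unpaired, 246 features (1.4%) and 1 gene of the family (Chst1) were called. Leaving out 1 culture called 832 to 5151 features (2090 with all 3), 6 to 19 genes of the family and 17 to 29 dye effects in it. Without culture 1, which correlated with cultures 2 and 3 at 0.61 and 0.65 while those correlated at 0.89, the family had 19 of 40 genes called, against 32.2% of features. Without culture 2 Hs3st1, and without culture 3 Hs3st1 and St6gal1, lost their calls. Arrays with epithelial RNA in Cy3 alone called 7060 features (40.1%) and 20 genes of the family (48.8%). Those with it in Cy5 alone called 5871 features (33.4%) and 16 genes of the family (39.0%). Dye effects do not cancel in either set. In the first, St3gal4 (0.38) lost its call. Mgat2 (-0.98) and Galnt10 (0.57), which were not called with both orientations, were called there with the other sign. In the second, Hs6st1 (-0.45) and Hs6st2 (0.071) lost their calls, Hs6st2 with a change of sign. Mgat1 (-0.51), B4galt1 (-0.38) and Galnt7 (1.15), which were not called with both orientations, were called there with the other sign. Beyond the dye effects that such single orientations retain, the cause of these shifts was not tested. Saturation limits Hs6st2, and the background flag, carried by many negative controls, limits what can be said of dim probes.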

Other observations

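Cultures split on several members that were not called. Galnt6, which begins O-glycans, had log2 ratios of mesenchymal over epithelial RNA of -0.41, 0.19 and 0.31 in cultures 1, 2 and 3, and B3gnt2, which extends N-acetyllactosamine, had -0.34, 0.12 and 0.44. Both were lower in mesenchymal cells of culture 1 and higher in those of the other cultures, opposite to Ext1. Hs6st1 was lower in mesenchymal cells in all 3, by 0.66 more in culture 1 than in the mean of the others. These genes were chosen after their values were seen, and the differences between cultures were not tested.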
